A study of Mus musculus with 3 samples.

Results

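The enzymes that place methyl groups on cytosine in DNA, and those that start their removal, were followed here through 8 mouse genes: *Dnmt1*, *Uhrf1*, *Dnmt3a*, *Dnmt3b*, *Dnmt3l*, *Tet1*, *Tet2* and *Tet3*. They were chosen by name, through their Entrez gene numbers, from the 17997 genes listed in any of 3 RNA-seq gene tables, and all 8 were listed in each table. The cells were from 46C (strain 129), an embryonic stem cell line that has a fluorescent reporter at *Sox1*, grown on gelatin with serum and leukemia inhibitory factor (LIF). The Lef1 P5 library came from cells given Lef1, through which beta-catenin reaches DNA in Wnt signalling, and collected at passage 5. The Lef1 P2 library came from cells given Lef1 and collected at passage 2, and the empty vector P2 library from cells given the empty vector (PB) and collected at passage 2. The labels do not say whether the cells were a clone or a pool, and passage 5 has no empty-vector counterpart among the libraries used here.

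Dnmt1 copies existing methylation onto newly made DNA strands, and Uhrf1 brings it to sites methylated on one strand only. Dnmt3a and Dnmt3b methylate DNA that carried no mark before, and Dnmt3l, which has no methyltransferase activity of its own, stimulates them in germ cells and embryonic stem cells. The Tet enzymes oxidise methylcytosine with 2-oxoglutarate as a cosubstrate, after which the base can be lost at replication or cut out by repair. Mouse embryonic stem cells are known for high *Dnmt3b*, *Dnmt3l* and *Tet1* and for little *Tet3*.

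Each group has n = 1 library, so no difference below has a replicate check and no p-value is given. Levels are the deposited FPKM, which count fragments per kilobase of a gene's transcripts in proportion to the library total. Ranges in parentheses are 95% counting intervals. They leave out the variation between cultures and libraries, and amplification can turn 1 molecule into several reads. The libraries held 9380813 (Lef1 P5), 9170554 (Lef1 P2) and 9225401 (empty vector P2) expected counts. *Lef1* itself was at 214 FPKM in Lef1 P5 and 135 FPKM in Lef1 P2, against 1.49 FPKM in empty vector P2. The stem cell markers *Pou5f1*, *Sox2*, *Nanog*, *Esrrb*, *Zfp42* and *Klf4* were all present, with a summed level of 2023 FPKM in Lef1 P5, 1542 FPKM in Lef1 P2 and 2119 FPKM in empty vector P2. The summed level of 12 endoderm markers was 495 FPKM in Lef1 P5, 1846 FPKM in Lef1 P2 and 178 FPKM in empty vector P2.

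The DNA just upstream of the *Dnmt3b* and *Tet1* starts is shown because these genes had the widest ranges across the libraries. The 250 bases before the RefSeq start are printed, with each CG dinucleotide, the site these enzymes act on, in capitals. The build is GRCm38.p6, for *Dnmt3b* chr2:153649199-153649448 on the plus strand and for *Tet1* chr10:62887325-62887574 on the minus strand.
Dnmt3b: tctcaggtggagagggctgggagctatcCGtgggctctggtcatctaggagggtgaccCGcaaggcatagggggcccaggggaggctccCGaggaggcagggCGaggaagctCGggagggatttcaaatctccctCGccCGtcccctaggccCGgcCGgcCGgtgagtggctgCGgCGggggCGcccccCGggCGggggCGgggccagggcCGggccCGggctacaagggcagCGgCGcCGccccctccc
Tet1: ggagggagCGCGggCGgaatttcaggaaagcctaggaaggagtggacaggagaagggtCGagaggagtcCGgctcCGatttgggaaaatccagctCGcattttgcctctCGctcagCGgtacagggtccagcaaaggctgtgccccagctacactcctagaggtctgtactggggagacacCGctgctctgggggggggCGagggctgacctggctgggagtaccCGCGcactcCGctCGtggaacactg
In the full RefSeq windows of 300 bases, which reach 50 bases past each start, all 8 genes matched, with 15 windows in all. The *Dnmt3b* window held 30 CG dinucleotides and the *Tet1* window 17, against a median of 7 over all 32851 windows. The *Tet2* window was the densest of the 15, with 57, and the 3 *Dnmt3l* windows were sparse, with 6, 4 and 3. The TCF/LEF motif was searched on both strands as the word AACAAAG, its form ATCAAAG and the further forms TACAAAG and then TTCAAAG. It was found in 1 of the 15 windows, the one at a start of *Dnmt1* with 2 CG dinucleotides, and in 16.9% of all windows. A match is only a description of the letters, and the windows hold little of any gene's regulatory DNA.

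*Dnmt3l* was the highest and *Tet3* the lowest of the 8 genes in all 3 libraries, and the order between them was much alike. In Lef1 P5 the order was *Dnmt3l*, *Dnmt3b*, *Uhrf1*, *Dnmt1*, *Tet1*, *Tet2*, *Dnmt3a* and *Tet3*, with no overlap between the counting intervals of neighbours. In Lef1 P2 *Uhrf1* and *Dnmt1* came before *Dnmt3b*, and the intervals of *Dnmt1* and *Dnmt3b* overlapped. In empty vector P2 *Uhrf1* came before *Dnmt3b*, and the intervals of *Tet2* and *Dnmt3a* overlapped slightly. By rank among the listed genes, *Dnmt3l* stood at place 231 of 16587 in Lef1 P5, 203 of 16916 in Lef1 P2 and 173 of 16450 in empty vector P2. *Tet3* stood at place 10306 in Lef1 P5, 10059 in Lef1 P2 and 9983 in empty vector P2. All 24 expected counts of these genes were whole numbers.

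**Figure D1:**
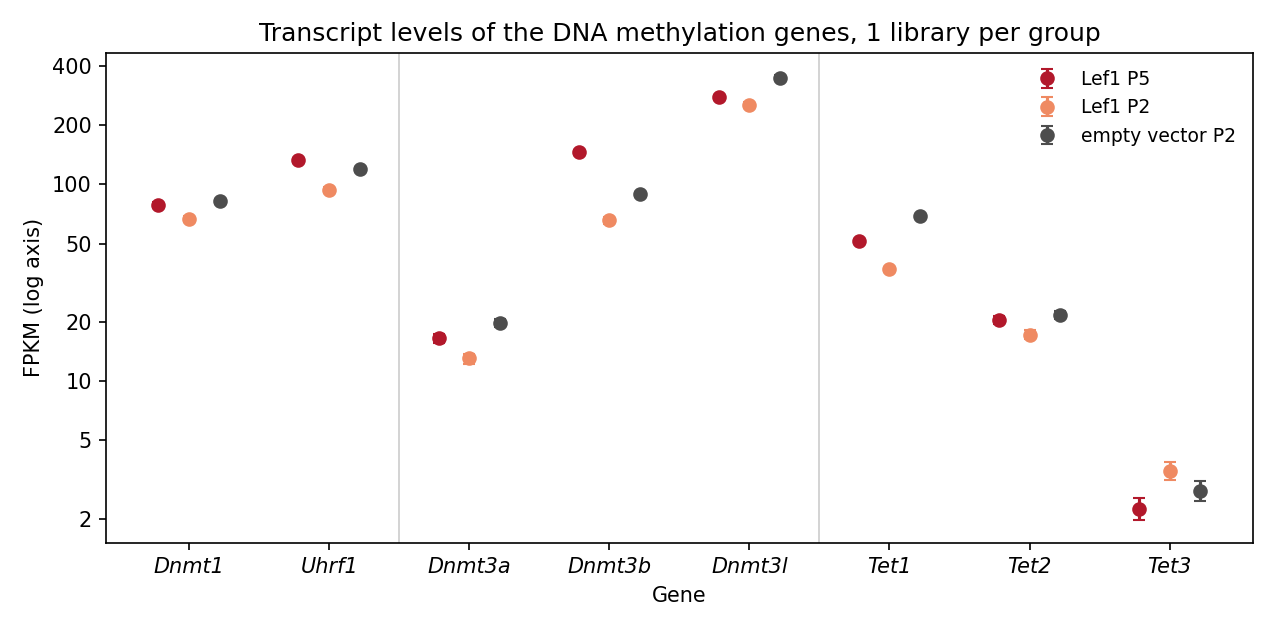
FPKM (log axis) of the 8 genes in the Lef1 P5, Lef1 P2 and empty vector P2 libraries. Points are single libraries and bars are 95% counting intervals, often smaller than the point. *Dnmt3b* is highest in Lef1 P5 (145 FPKM) and *Tet1* highest in empty vector P2 (68.9 FPKM).

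*Dnmt3b*, one of the enzymes that set new methylation, differed most across the libraries. It was at 145 FPKM (142 to 149) in Lef1 P5, 65.6 FPKM (63.0 to 68.2) in Lef1 P2, against 89.0 FPKM (86.0 to 92.0) in empty vector P2, from 5638 (Lef1 P5), 2471 (Lef1 P2) and 3367 (empty vector P2) reads. The Lef1 library of passage 2 thus lay under the empty-vector library and that of passage 5 above both. The level in Lef1 P5 was 2.22 times that in Lef1 P2 (2.11 to 2.32) and 1.63 times that in empty vector P2 (1.57 to 1.71), and Lef1 P2 had 0.737 times the empty-vector level (0.700 to 0.777). In the comparison of the 2 Lef1 libraries, 98.9% of the tested genes had a lower ratio than *Dnmt3b*.

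*Dnmt3a*, its partner in setting new methylation, was at 16.6 FPKM (15.7 to 17.4) in Lef1 P5, 13.0 FPKM (12.3 to 13.8) in Lef1 P2, against 19.7 FPKM (18.8 to 20.7) in empty vector P2. Both Lef1 libraries lay under the empty-vector library, with ratios of 0.841 (0.783 to 0.902) in Lef1 P5 and 0.662 (0.613 to 0.714) in Lef1 P2. The length that the deposited tables use for *Dnmt3a*, which has 3 RefSeq transcripts there, was 9369 bases in Lef1 P5, 9575 in Lef1 P2 and 9236 in empty vector P2. Without the length, from shares of each library's reads, the ratio of Lef1 P2 to empty vector P2 was 0.686. An antisense gene overlaps *Dnmt3a* exons in GENCODE, as do genes on the opposite strand of *Dnmt3l* and *Tet2*, and the sources used here do not say whether the counting used strand.

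*Dnmt3l*, the cofactor of both, was the most abundant of the 8 transcripts in every library. It was at 277 FPKM (269 to 286) in Lef1 P5, 254 FPKM (246 to 262) in Lef1 P2, against 349 FPKM (340 to 359) in empty vector P2. The Lef1 libraries both lay under the empty-vector library, at 0.794 times (0.762 to 0.827) in Lef1 P5 and 0.727 times (0.697 to 0.758) in Lef1 P2. They differed from each other by far less than for *Dnmt3b*, with a ratio of Lef1 P5 to Lef1 P2 of 1.09 (1.04 to 1.14).

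Of the maintenance pair, *Dnmt1* had the narrowest range of all 8 genes and *Uhrf1* a range close to that of *Dnmt3l*. *Dnmt1* was at 78.4 FPKM (76.0 to 80.9) in Lef1 P5, 66.6 FPKM (64.3 to 68.9) in Lef1 P2, against 82.2 FPKM (79.7 to 84.8) in empty vector P2. The intervals of Lef1 P5 and empty vector P2 overlapped, though that of their ratio, 0.954 (0.913 to 0.998), left out 1. Lef1 P2 lay under both libraries. *Uhrf1*, which recruits Dnmt1, was at 132 FPKM (128 to 136) in Lef1 P5, 93.8 FPKM (90.4 to 97.2) in Lef1 P2, against 119 FPKM (115 to 123) in empty vector P2. It was lowest in Lef1 P2 and highest in Lef1 P5, with a ratio between these of 1.41 (1.35 to 1.48).

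*Tet1*, the most abundant of the oxidising enzymes in these cells, was at 51.8 FPKM (50.6 to 53.0) in Lef1 P5, 37.0 FPKM (36.0 to 38.1) in Lef1 P2, against 68.9 FPKM (67.4 to 70.3) in empty vector P2, from 6833 (Lef1 P5), 4772 (Lef1 P2) and 8928 (empty vector P2) reads. Both Lef1 libraries lay under the empty-vector library. The ratio was 0.752 (0.729 to 0.777) in Lef1 P5 and 0.538 (0.519 to 0.557) in Lef1 P2, and 2.69% of the genes tested in Lef1 P2 against empty vector P2 had a lower ratio than *Tet1* there. *Tet2* was at 20.4 FPKM (19.4 to 21.4) in Lef1 P5, 17.2 FPKM (16.3 to 18.1) in Lef1 P2, against 21.6 FPKM (20.6 to 22.6) in empty vector P2. Its intervals overlapped between Lef1 P5 and empty vector P2, with a ratio of 0.944 (0.884 to 1.01), and Lef1 P2 was lower. *Tet3*, known in the mouse for its part in the zygote, was at 2.24 FPKM (1.96 to 2.55) in Lef1 P5, 3.50 FPKM (3.14 to 3.89) in Lef1 P2, against 2.77 FPKM (2.45 to 3.12) in empty vector P2, from 229 (Lef1 P5), 349 (Lef1 P2) and 278 (empty vector P2) reads. It was the only one of the 8 genes with its highest level in Lef1 P2.

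To set these ratios beside those of all genes, a call was made where log2((x + 1)/(y + 1)) of the FPKM values reached 1 in either direction, which is 2-fold, with at least 3 FPKM and 20 reads in the higher library. The first comparison, Lef1 P2 with empty vector P2, matches passage and asks what differs with the introduced gene. None of the 8 genes was called, where 8.31% of 10651 tested genes were, 6.49% as higher and 1.82% as lower. The ratio was under 1 for 7 of the 8 and above 1 for *Tet3*, and each counting interval left out 1. These intervals hold counting error only, and the share of all tested genes whose interval leaves out 1 was not counted. The median log2 ratio of the 8 was -0.39, against 0.09 over all tested genes. *Tet1* came closest to the threshold, at -0.88. With median-of-ratios or TMM scaling (trimmed mean of M values), which moved the median of all genes by -0.16 and -0.15, *Tet1* was called lower at -1.03 and -1.02, and the other 7 stayed uncalled. Under these scalings 62.3% and 62.5% of all calls were higher, against 78.1% with the deposited FPKM.

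Lef1 P5 and empty vector P2 differ by the introduced gene and by passage, which cannot be told apart. This comparison and the one before it share the empty-vector library. None of the 7 genes tested was called, where 2.69% of 10121 genes were, 1.4% as higher and 1.28% as lower, and *Tet3* was under 3 FPKM in both libraries. *Dnmt3b* had the largest log2 ratio, 0.70, and 3.03% of tested genes had a higher one. *Uhrf1* was the only other gene with a ratio above 1, at 1.11 (1.06 to 1.16). *Tet1* had the lowest log2 ratio, -0.40.

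Lef1 P5 against Lef1 P2 asks what differs between the passages of cells given Lef1. *Dnmt3b* was called higher, with a log2 ratio of 1.14, and the other 7 were not called. In all, 8.74% of 10593 tested genes were called, 1.88% higher and 6.86% lower. Except for *Tet3* at 0.640 (0.539 to 0.758), the ratios were above 1, and their intervals left out 1. Here too the share of all tested genes with such an interval was not counted. The median log2 ratio of the 8 was 0.28, against -0.14 over all tested genes. Median-of-ratios and TMM scaling moved the median of all genes by 0.20 and 0.17, and the *Dnmt3b* call held under both.

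**Figure D2:**
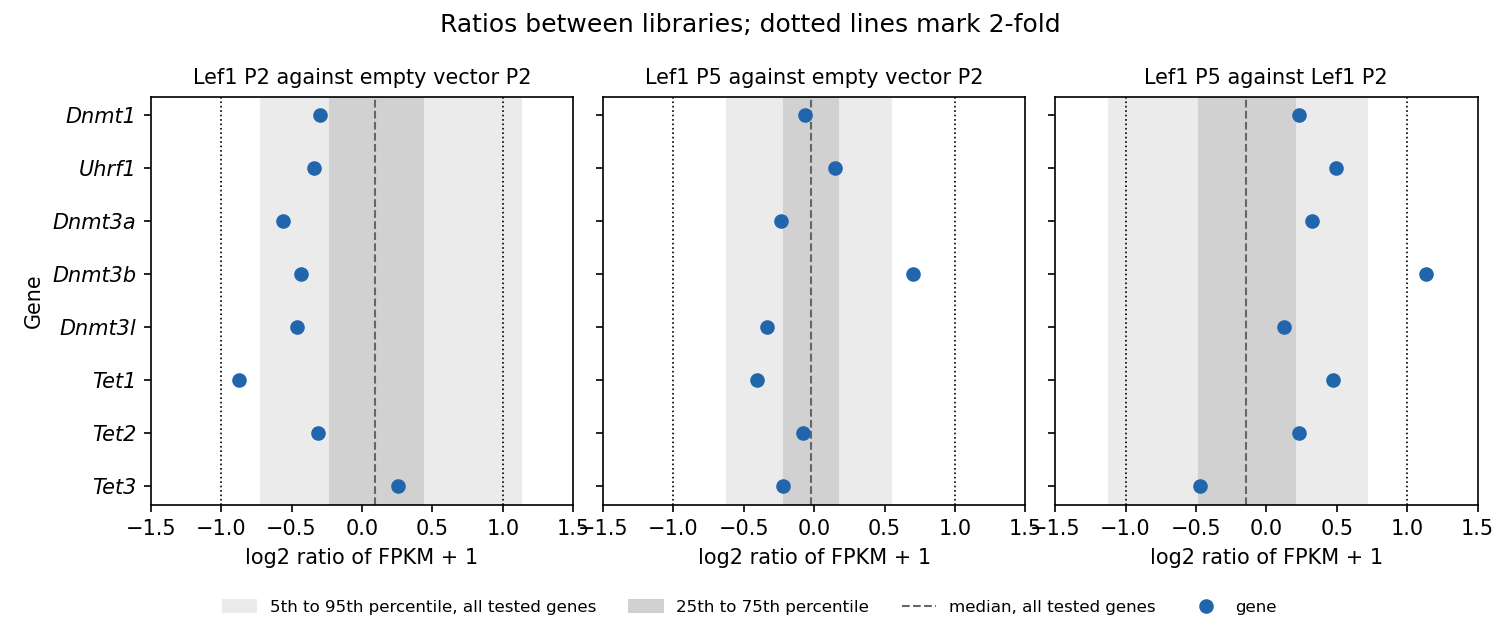
Log2 ratios of FPKM + 1 for the 8 genes in the 3 comparisons, 1 library against 1. Grey bands give the 5th to 95th and 25th to 75th percentiles of all tested genes, the dashed line their median and dotted lines 2-fold. With the deposited FPKM only *Dnmt3b* passes 2-fold, in Lef1 P5 against Lef1 P2 (1.14), while *Tet1* lies at -0.88 in Lef1 P2 against empty vector P2.

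Proportions between genes of 1 library are free of the scaling between libraries. Per length, *Dnmt3b* had 8.78 times the level of *Dnmt3a* (8.29 to 9.31) in Lef1 P5, 5.03 times (4.69 to 5.41) in Lef1 P2 and 4.52 times (4.26 to 4.79) in empty vector P2. The balance of these enzymes thus stood apart in Lef1 P5, while the intervals of the passage 2 libraries overlapped. *Dnmt3l* had 1.71 times the summed level of *Dnmt3a* and *Dnmt3b* in Lef1 P5, against 3.23 times in Lef1 P2 and 3.21 times in empty vector P2. *Dnmt3b* made up 60.5% of the summed level of *Dnmt1*, *Dnmt3a* and *Dnmt3b* in Lef1 P5, 45.2% in Lef1 P2 and 46.6% in empty vector P2.

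Within the maintenance pair, *Uhrf1* had 1.69 times the level of *Dnmt1* (1.62 to 1.76) in Lef1 P5, 1.41 times (1.34 to 1.48) in Lef1 P2 and 1.45 times (1.39 to 1.52) in empty vector P2. Here too Lef1 P5 was high and the other libraries overlapped. For *Tet1* and *Tet2* the intervals of all 3 libraries were separate, with empty vector P2 highest. *Tet1* had 2.54 times the level of *Tet2* (2.41 to 2.68) in Lef1 P5, 2.15 times (2.03 to 2.29) in Lef1 P2 and 3.19 times (3.03 to 3.36) in empty vector P2. The summed level of the 3 Tet genes was 31.0% of that of the 3 catalytic Dnmt genes in Lef1 P5, 39.8% in Lef1 P2 and 48.8% in empty vector P2.

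**Figure D3:**
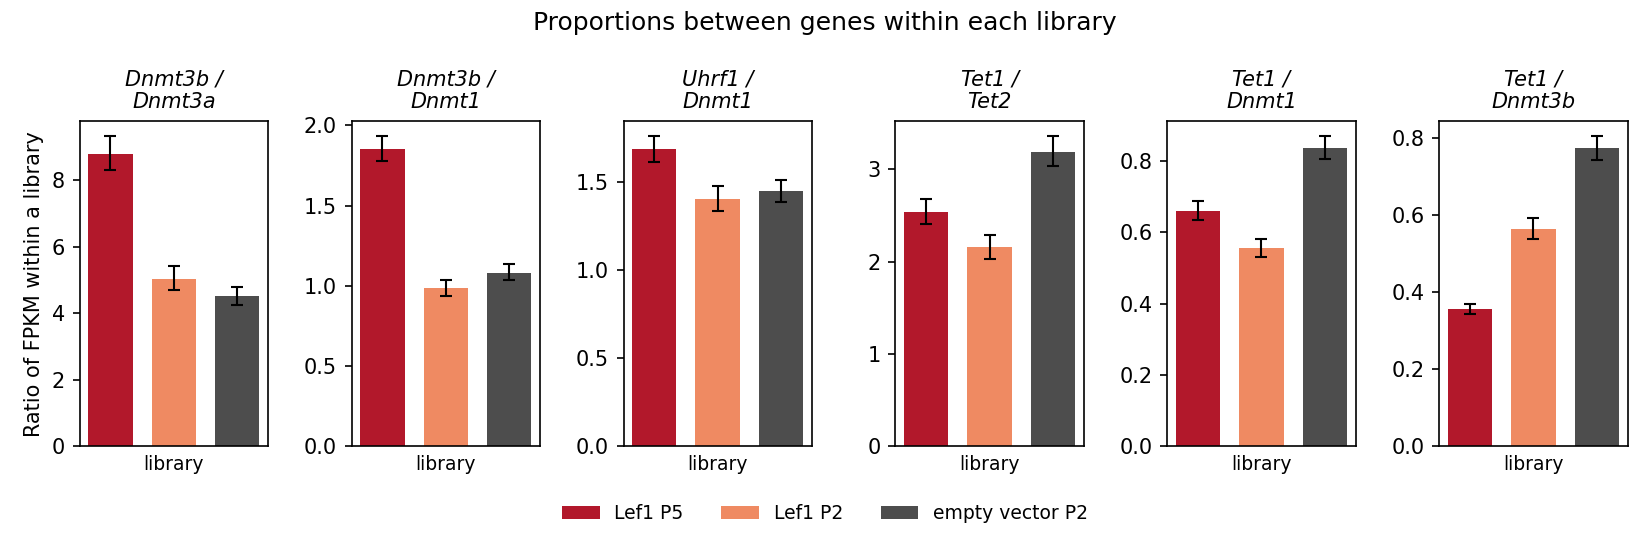
Ratios of FPKM between pairs of genes within each library, with 95% counting intervals as bars. *Dnmt3b* over *Dnmt3a* is highest in Lef1 P5 (8.78), and *Tet1* over *Tet2* and *Tet1* over *Dnmt1* are highest in empty vector P2 (3.19 and 0.838).

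In bulk RNA, fewer cells of a type and less RNA per cell cannot be told apart. The endoderm markers moved with the comparison at passage 2: 12 of 12 were called higher in Lef1 P2 than in empty vector P2, beside 6.49% of all tested genes. In Lef1 P5, 9 of 11 tested were called higher than in empty vector P2, beside 1.4% of all tested genes. None was called lower in these comparisons. Several tested markers, *Gata4* and *Gata6* included, were under 3 FPKM in empty vector P2. They passed the minimum level only through the Lef1 library, where they are high, and could hardly be called lower. In Lef1 P5 against Lef1 P2, 10 of 12 were called lower and none higher, beside 6.86% of all tested genes called lower. *Gata6* was at 20.3 FPKM in Lef1 P5, 46.3 FPKM in Lef1 P2 and 2.24 FPKM in empty vector P2, and *Gata4* was at 16.3 FPKM in Lef1 P5, 66.0 FPKM in Lef1 P2 and 2.82 FPKM in empty vector P2. None of the endoderm markers was at 0 in any library. The fibroblast markers *Lum* and *Postn* were at 0 in all 3 libraries, and the 8 genes of that list summed to 9.79 FPKM in Lef1 P5, 13.5 FPKM in Lef1 P2 and 18.9 FPKM in empty vector P2. Most of each sum was *Thy1*, named after its values were seen, at 7.21 FPKM in Lef1 P5, 9.54 FPKM in Lef1 P2 and 15.7 FPKM in empty vector P2. It was called lower in Lef1 P5 than in empty vector P2, with a log2 ratio of -1.02, a call that was lost with a pseudocount of 5 and with median-of-ratios. *Pou5f1* was at 1062 FPKM in Lef1 P5, 704 FPKM in Lef1 P2 and 1135 FPKM in empty vector P2, and *Nanog*, whose counts were not whole, was at 176 FPKM in Lef1 P5, 167 FPKM in Lef1 P2 and 159.8 FPKM in empty vector P2. The part of these markers in the levels above was not tested.

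The levels of *Dnmt3b* and *Tet1* were also set against each of the 6 stem cell markers, a comparison chosen after the values were seen. In Lef1 P5 *Dnmt3b* stood above its empty-vector proportion with 6 of 6 markers. In Lef1 P2 it stood below with 5 of 6 and above with *Pou5f1* alone. The gap was small with *Sox2*, at 34.13% in Lef1 P2 and 35.04% in empty vector P2. It was also small with *Zfp42*, at 23.48% in Lef1 P2 and 24.61% in empty vector P2. Against the summed level of the 6 markers, *Dnmt3b* in Lef1 P2 was not below. It was at 7.19% in Lef1 P5, 4.25% in Lef1 P2 and 4.197% in empty vector P2. Relative to *Nanog*, *Dnmt3b* was at 82.7% in Lef1 P5, 39.2% in Lef1 P2 and 55.7% in empty vector P2. Relative to *Pou5f1*, it was at 13.7% in Lef1 P5, 9.32% in Lef1 P2 and 7.84% in empty vector P2, so the place of Lef1 P2 depended on the marker. *Tet1* stood below its empty-vector proportion with 6 of 6 markers in Lef1 P2 and with 5 of 6 in Lef1 P5, where *Klf4* was the exception. Relative to the summed level of the 6 markers, *Tet1* was at 2.56% in Lef1 P5, 2.40% in Lef1 P2 and 3.25% in empty vector P2.

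Genes whose pattern over the 3 libraries was nearest to that of *Dnmt3b*, by the distance between their pairs of log2 ratios to empty vector P2, were *Ahcy*, *Ddc* and *Gm20300*. The distances were 0.03, 0.03 and 0.06, and 41 of the 10731 genes compared lay within 0.25. These log2 ratios are of FPKM + 1, which understates the change of low genes such as *Ahcy* and *Ddc*. Without the added 1, the ratio of *Ahcy* to empty vector P2 was 1.84 in Lef1 P5 and 0.673 in Lef1 P2. For *Dnmt3b* these ratios were 1.63 and 0.737, so part of the closeness of *Ahcy* came from the added 1. *Ahcy*, which breaks down the by-product of methyl transfer, was at 5.75 FPKM in Lef1 P5, 2.10 FPKM in Lef1 P2 and 3.12 FPKM in empty vector P2, with counts that were not whole. *Ddc*, the aromatic amino acid decarboxylase gene, was at 6.46 FPKM in Lef1 P5, 2.46 FPKM in Lef1 P2 and 3.57 FPKM in empty vector P2. *Gm20300*, at a higher level, was at 31.22 FPKM in Lef1 P5, 14.55 FPKM in Lef1 P2 and 19.22 FPKM in empty vector P2. With 3 libraries such likeness is a description only.

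Genes that act with these enzymes were read from lists. Of 16 tested regulators, none was called in either comparison with empty vector P2, where 8.31% (Lef1 P2) and 2.69% (Lef1 P5) of all tested genes were. In Lef1 P5 against Lef1 P2, 2 were called higher, beside 1.88% of all tested genes. These were the co-repressor gene *Trim28*, at 716 FPKM in Lef1 P5 and 354 FPKM in Lef1 P2, and the histone deacetylase gene *Hdac1*, at 141 FPKM in Lef1 P5 and 65.9 FPKM in Lef1 P2. In empty vector P2 *Trim28* was at 621 FPKM and *Hdac1* at 121 FPKM, and *Hdac1* was called lower in Lef1 P2 than there with median-of-ratios and TMM scaling. The list's median log2 ratio was 0.14 between the Lef1 libraries, against -0.14 over all tested genes. Named after their values were seen, the replication clamp gene *Pcna* and the chromatin remodeller gene *Hells* lay just under the threshold there, at 343 FPKM in Lef1 P5 and 173 FPKM in Lef1 P2, and at 128 FPKM in Lef1 P5 and 66.5 FPKM in Lef1 P2. Both were called higher in Lef1 P5 than in Lef1 P2 with median-of-ratios and TMM scaling. In empty vector P2 *Pcna* was at 290 FPKM and *Hells* at 114 FPKM, so Lef1 P2 was the lowest library for both. *Dppa3*, which keeps Uhrf1 off chromatin in mouse oocytes, was at 5.59 FPKM in Lef1 P5, 4.62 FPKM in Lef1 P2 and 2.71 FPKM in empty vector P2 and was not called, except higher in Lef1 P5 than in empty vector P2 with a pseudocount of 0.1 or at 1.5-fold, and higher in Lef1 P2 than there at 1.5-fold.

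Genes for base excision, which can cut out oxidised methylcytosine, went both ways. None of 15 was called in either comparison with empty vector P2, where 8.31% (Lef1 P2) and 2.69% (Lef1 P5) of all tested genes were. With a pseudocount of 0.1 *Gadd45b* was called higher in Lef1 P2 than in empty vector P2. Between the Lef1 libraries the endonuclease gene *Apex1* was called higher, at 177 FPKM in Lef1 P5 and 77.6 FPKM in Lef1 P2. Empty vector P2 had 149 FPKM, and median-of-ratios and TMM scaling called the gene lower in Lef1 P2 than there. The glycosylase genes *Neil2*, at 4.35 FPKM in Lef1 P5 and 11.4 FPKM in Lef1 P2, and *Neil3*, at 2.11 FPKM in Lef1 P5 and 6.71 FPKM in Lef1 P2, and the stress gene *Gadd45b*, at 5.88 FPKM in Lef1 P5 and 16.2 FPKM in Lef1 P2, were called lower. These 3 calls were lost with a pseudocount of 5, and that of *Neil3* also with a minimum of 10 FPKM. Of all tested genes, 1.88% were called higher between the Lef1 libraries and 6.86% lower. In empty vector P2 *Neil2* was at 7.06 FPKM, *Neil3* at 3.57 FPKM and *Gadd45b* at 7.99 FPKM. *Tdg*, whose product removes oxidised methylcytosine, was at 3.09 FPKM in Lef1 P5, 4.27 FPKM in Lef1 P2 and 4.15 FPKM in empty vector P2, with counts that were not all whole. Its list had a median log2 ratio of -0.18 between the Lef1 libraries, near the -0.14 of all tested genes. Against empty vector P2 the median was 0.03 in Lef1 P2 and -0.33 in Lef1 P5, where all tested genes had 0.09 and -0.02. No reader of methylated DNA was called in any comparison, of 5 tested. The share of all tested genes called was 8.31% in Lef1 P2 and 2.69% in Lef1 P5 against empty vector P2, and 8.74% between the Lef1 libraries. *Zbtb4* was called higher in Lef1 P2 than in empty vector P2 with a minimum of 1 FPKM or none. *Mbd3*, the most abundant of them, was at 69.1 FPKM in Lef1 P5, 50.04 FPKM in Lef1 P2 and 65.4 FPKM in empty vector P2.

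Among 18 tested genes of methyl donor supply, *Ahcy* was called higher in Lef1 P5 than in Lef1 P2, beside 1.88% of all tested genes. None was called against empty vector P2, where 8.31% (Lef1 P2) and 2.69% (Lef1 P5) of all tested genes were. The *Ahcy* call was lost with a pseudocount of 5 and with a minimum of 10 FPKM. With median-of-ratios and TMM scaling *Shmt1* was also called higher in Lef1 P5 than in Lef1 P2, and with median-of-ratios *Tdh* and *Amd1*. The median log2 ratio was -0.23 in Lef1 P2 against empty vector P2, 0.16 in Lef1 P5 against empty vector P2 and 0.33 in Lef1 P5 against Lef1 P2, where all tested genes had 0.09, -0.02 and -0.14. *Mat2a*, which makes the methyl donor, was at 98.9 FPKM in Lef1 P5, 63.4 FPKM in Lef1 P2 and 61.1 FPKM in empty vector P2. *Tdh*, the threonine dehydrogenase gene of mouse stem cells, was at 298 FPKM in Lef1 P5, 170.3 FPKM in Lef1 P2 and 216 FPKM in empty vector P2. Of 16 genes around 2-oxoglutarate, 1 was called: *D2hgdh*, which clears a competitor of 2-oxoglutarate, was higher in Lef1 P2 (7.56 FPKM) than in empty vector P2 (3.21 FPKM). This call was lost with median-of-ratios and TMM scaling, a pseudocount of 5 and a minimum of 10 FPKM. In that comparison 6.49% of all tested genes were called higher. *D2hgdh* was also called lower in Lef1 P5 than in Lef1 P2 with a pseudocount of 0.1 and with counts without the length.

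Germline genes that DNA methylation is known to keep silent were listed as a downstream readout. In Lef1 P2 against empty vector P2, 3 of 14 tested were called higher and none lower, beside 6.49% of all tested genes called higher. They were the carrier gene *Slc25a31* (3.72 FPKM in Lef1 P2, 0.74 FPKM in empty vector P2), the germ cell TAF gene *Taf7l* (6.81 FPKM in Lef1 P2, 1.79 FPKM in empty vector P2) and the dipeptidase gene *Dpep3* (3.57 FPKM in Lef1 P2, 0.93 FPKM in empty vector P2). All 3 genes were under 3 FPKM in empty vector P2 and passed the minimum level only through Lef1 P2. All 3 calls were lost with a pseudocount of 5 (0 of 14) and with a minimum of 10 FPKM (0 of 5 tested). With median-of-ratios or TMM scaling *Rpl10l* was called lower as well, and with a pseudocount of 0.1 *Tex101* was also called higher. Of the same list in Lef1 P5 against Lef1 P2, none was called higher and 6 of 14 lower, beside 6.86% of all tested genes called lower. Besides the same 3 genes these were the RNA-binding protein gene *Dazl* (4.76 FPKM in Lef1 P5, 13.8 FPKM in Lef1 P2), the RNA helicase gene *Ddx4* (2.25 FPKM in Lef1 P5, 7.11 FPKM in Lef1 P2) and the synaptonemal complex gene *Sycp3* (11.1 FPKM in Lef1 P5, 23.8 FPKM in Lef1 P2), whose call was lost with median-of-ratios and TMM scaling. With a pseudocount of 5 none of these 6 calls was made, and with a minimum of 10 FPKM 2 of 5 tested genes were called, *Dazl* and *Sycp3*. With a pseudocount of 0.1, *Sycp1*, *Tex101* and *Hormad1* were also called lower. In empty vector P2 *Dazl* was at 7.7 FPKM, *Ddx4* at 4.88 FPKM and *Sycp3* at 18.06 FPKM. Against empty vector P2, Lef1 P5 had 1 of 10 tested genes called, as lower, beside 1.28% of all tested genes called lower. This was the tubulin gene *Tuba3a*, at 8.67 FPKM in Lef1 P5 against 25.4 FPKM in empty vector P2, with counts that were not whole. *Ddx4* was also called lower there with a pseudocount of 0.1 and with counts without the length. The list's median log2 ratio was 0.42 in Lef1 P2 against empty vector P2, where all tested genes had 0.09. With a minimum of 10 FPKM this median was -0.37 over 5 tested genes, where all tested genes had 0.03. The other alternatives kept it positive. At the minimum of 3 FPKM the median was -0.60 in Lef1 P5 against empty vector P2, where all tested genes had -0.02. Between the Lef1 libraries it was -0.91, where all tested genes had -0.14. Several genes of this list passed the minimum level only through the library where they are high. DNA methylation itself was not measured.

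**Figure D4:**
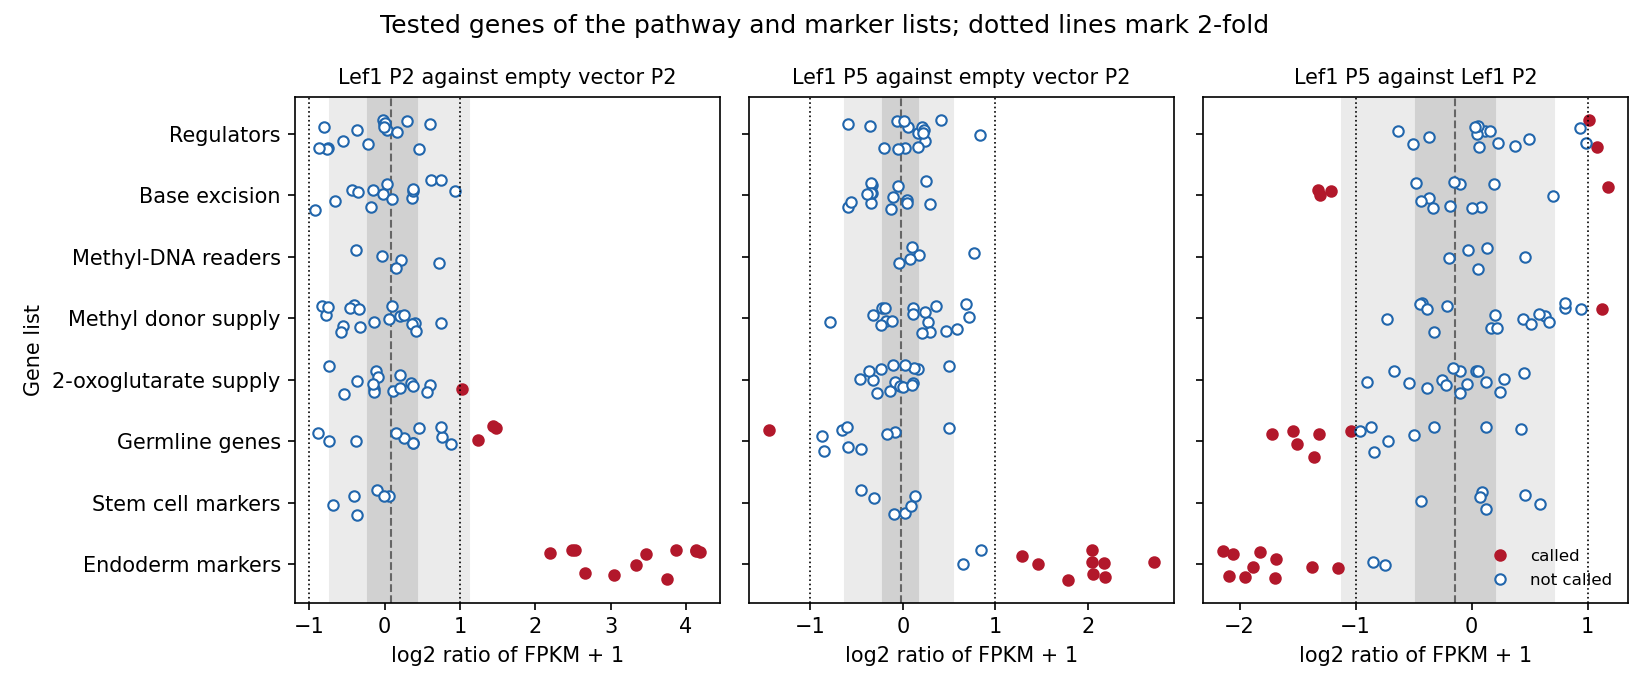
Log2 ratios of FPKM + 1 of tested genes in the pathway and marker lists, with filled points for genes called at 2-fold and grey bands for all tested genes as in the plot of ratios. Endoderm markers lie to the right in Lef1 P2 against empty vector P2 (12 of 12 called higher, beside 6.49% of all tested genes). In Lef1 P5 against Lef1 P2, 6 of 14 germline genes are called lower, beside 6.86% of all tested genes. Several endoderm and germline genes passed the minimum level only through the library where they are high.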

How the data were processed

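Total RNA of 3 cultures was sequenced, 1 library per group. The submitters' processing notes name Bowtie 0.12.2 and build mm8; the sources used here do not name the counting program. The deposited expected counts, which are estimated counts of reads per gene, need not be whole, and they were not whole in 8.49% (Lef1 P5), 8.56% (Lef1 P2) and 8.61% (empty vector P2) of listed genes. The deposited FPKM values follow from these counts with a length that was, at the median, 51.0, 59.8 and 54.9 bases under the length column. The length column, per the file headers a length of each gene, was the same in all libraries for all 11096 genes with 1 transcript and differed for 3681 of 4281 with several. A gene missing from a table was taken as 0.

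Symbols were matched by Entrez number to a RefSeq table of GRCm38.p6, with 17951 of 17997 matched. No genome coordinates of the files were used. The ratio was log2((x + 1)/(y + 1)) of FPKM, which understates the change of low genes. Intervals are exact Poisson for levels and exact binomial (Clopper-Pearson) for ratios of counts, put on the FPKM scale. No test between conditions was possible with 1 library per group. Expected counts were rounded only for TMM. The tools were Python 3.11.15, numpy 2.4.6, pandas 2.3.3, scipy 1.17.1, R 4.3.3 and edgeR 4.0.16. The calling rule and the intervals were tried on data simulated with counting error alone. That trial holds no variation between cultures or libraries, so it cannot show how often such variation would give a call. Alternatives tried were a pseudocount of 0.1 or 5, a minimum of 1 FPKM, of 10 FPKM or none, median-of-ratios and TMM scaling, counts without the length (scaled to the library total), a 1.5-fold threshold and intervals that do not overlap.

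The 8 genes and the lists were chosen with earlier results of these data known. Named were all 8 genes, called members of the pathway lists up to 4 per direction, of the marker lists only *Pou5f1*, *Nanog*, *Gata4* and *Gata6*, then *Lef1* and the 3 genes nearest to the member with the widest range. Other names were chosen after their values were seen.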

Additional observations from a re-analysis of the deposited data

Results flagged for a closer look

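For 3 of the 8 genes the Lef1 libraries of the 2 passages lay on opposite sides of the empty-vector library they share, with counting intervals that left out 1. The share of all genes that meet this rule was not counted, so 3 of 8 cannot be called unusual. The ratio of *Dnmt3b* to empty vector P2 was 1.63 in Lef1 P5 and 0.737 in Lef1 P2. The ratio of *Uhrf1* was 1.11 in Lef1 P5 and 0.787 in Lef1 P2. The ratio of *Tet3* was 0.809 in Lef1 P5 and 1.26 in Lef1 P2. *Tet3* was under 3 FPKM in Lef1 P5 and empty vector P2, below the minimum for a call between them. With 1 library per group these differences were not tested, and passage and library cannot be told apart.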

How the results depend on the processing

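Of the 10 alternatives, 5 (both pseudocounts, both scalings and counts without the length) can change a log2 ratio, and the other 5 change only which genes are called. All 24 log2 ratios of the 8 genes kept their sign under those 5, and 30 of 120 values moved by more than the counting interval. *Dnmt3b* ranged from 1.09 to 1.34 in Lef1 P5 against Lef1 P2 and was called in every alternative. In Lef1 P2 against empty vector P2, *Tet1* ranged from -1.03 to -0.81, and 1 of the 8 genes was called with median-of-ratios, TMM and the 1.5-fold threshold. In Lef1 P5 against empty vector P2, 1 was called with the 1.5-fold threshold, *Dnmt3b*.

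Over all genes, 885 were called in Lef1 P2 against empty vector P2, and 328 with a pseudocount of 5, 478 with a minimum of 10 FPKM and 2719 at 1.5-fold. In Lef1 P5 against empty vector P2, 272 were called, and 414 with a pseudocount of 0.1, 67 with 5, 116 with a minimum of 10 FPKM and 1038 at 1.5-fold. Between the Lef1 libraries, 926 were called, and 281, 503 and 2961 with a pseudocount of 5, a minimum of 10 FPKM and 1.5-fold. The share of higher calls in that comparison was 21.5% as deposited, 45.8% with median-of-ratios and 43.4% with TMM. For Lef1 P5 against empty vector P2 it was 52.2%, and 62.7% with a pseudocount of 5 and 42.0% at 1.5-fold. The cause was not tested. No paired analysis was possible because each group has 1 library. Depth limits *Tet3* most, at 229 to 349 reads.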
